A study of Mus musculus with 7 samples.

Results

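The endothelin and angiotensin systems of the mouse carotid artery were described from 18 probe sets of 9 genes, out of 18194 genes named on the array by a probe set with exactly 1 symbol. The genes were taken from a set of 10 by their symbol in the platform annotation. They were the converting enzymes Ece1 and Ece2, the peptide genes Edn1 and Edn3, the endothelin receptor gene Ednrb, angiotensinogen (Agt), the angiotensin converting enzyme Ace and the angiotensin receptor genes Agtr1a and Agtr2. No probe set used here carried the symbol of the other endothelin receptor, Ednra, which was not analysed here. RNA from carotid arteries was measured on Affymetrix Mouse 430 2.0 arrays in 4 samples from ApoE-null mothers and wild-type fathers and in 3 samples from wild-type mothers and ApoE-null fathers. Offspring of both crosses had the genotype ApoE-/+, so each carried 1 null allele of the gene for apolipoprotein E. The labels call the ApoE-/- mothers hypercholesterolemic and the wild-type mothers normocholesterolemic, and the design text asks how such crosses bear on susceptibility to atherosclerosis. Mother and father both differed between the crosses, so their effects cannot be told apart. The labels used here name no age, sex or litter, and separate animals per array are not stated, so p-values measure only the spread between these samples.

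Endothelin-1 is released mainly by endothelial cells as a small peptide cut from a larger precursor by endothelin converting enzymes. It acts on ETA receptors (Ednra) of smooth muscle, which drive contraction, and on ETB receptors (Ednrb), which on endothelium trigger nitric oxide release and clear the peptide. In the other system, renin cuts angiotensinogen to angiotensin I, Ace converts that to angiotensin II on the endothelial surface, and AT1 receptors (Agtr1a and, in rodents, Agtr1b) pass the signal through Gq proteins to calcium release and contraction. The AT2 receptor (Agtr2) is known for actions opposite to those of AT1 and for its expression before birth.

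Ece1, the main converting enzyme of the endothelin pathway in the vessel wall, is transcribed from several alternative first exons. Its proteins share their catalytic domain and differ at the amino terminus. RefSeq lists 4 starts for it in build GRCm38.p6, and 2 of these lie close together. The 250 bases before 3 of the starts are shown because Ece1 is the gene whose groups of arrays stood apart, and the probe sets do not say from which start the measured transcripts began. All 3 windows are on the + strand, at chr4:137861987-137862236, chr4:137913308-137913557 and chr4:137920543-137920792, and capitals mark motif matches.

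Ece1 start 1: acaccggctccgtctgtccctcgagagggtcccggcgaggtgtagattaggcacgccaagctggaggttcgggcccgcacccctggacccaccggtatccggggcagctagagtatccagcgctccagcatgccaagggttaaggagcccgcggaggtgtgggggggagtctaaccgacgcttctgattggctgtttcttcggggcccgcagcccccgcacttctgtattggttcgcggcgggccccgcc
Ece1 start 3: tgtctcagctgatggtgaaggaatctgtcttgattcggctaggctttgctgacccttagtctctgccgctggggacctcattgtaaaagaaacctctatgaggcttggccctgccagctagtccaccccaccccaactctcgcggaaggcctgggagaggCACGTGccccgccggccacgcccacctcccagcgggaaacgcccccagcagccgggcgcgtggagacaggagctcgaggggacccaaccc
Ece1 start 4: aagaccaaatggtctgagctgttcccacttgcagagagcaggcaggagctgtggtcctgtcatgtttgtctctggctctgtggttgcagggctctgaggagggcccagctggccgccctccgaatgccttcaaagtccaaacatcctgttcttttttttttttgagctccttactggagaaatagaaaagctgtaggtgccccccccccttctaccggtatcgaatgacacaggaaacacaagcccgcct

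The windows had GC contents of 66.8%, 63.6% and 53.2%, against a median of 52.4% over the 32851 RefSeq promoter windows. Both strands were searched for 4 motifs. The core promoter element TATAAA occurred in 12.4% of all windows. The AP-1 site, with the letters TGAGTCA, occurred in 4.46%. A motif bound by factors such as that encoded by Gata2, with the letters AGATAA, occurred in 9.99%. The core of hypoxia response elements, with the letters ACGTG, occurred in 16.6%. In Ece1 the only match was to ACGTG, before start 3, where a match on each strand overlapped the other at positions -90 to -85, counted back from the start. Of the other 8 genes with a RefSeq window, Ece2 held ACGTG, Ace (start 1) and Agt held TATAAA, and those of Edn1, Edn3, Ednra, Ednrb and Agtr2 held none of the 4 motifs. Agtr1a had no window in the table.

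Values are linear intensities from the MAS5 algorithm, which the authors had scaled to the same trimmed mean on every array. Median signals were 36.0 to 42.1 per array, and 61.9% to 74.7% of probe sets per array lay above the highest of 27 probe sets for bacterial transcripts, here used as the level of background. That level was 10.6 to 20.4 on the ApoE-null mother arrays and at most 22.0 on the wild-type mother arrays. Smooth muscle markers were measured in 10 of 10 genes, with a summed signal of 33683.9 to 41894.4 with an ApoE-null mother and of 32244 to 41125.4 with a wild-type mother. Endothelial markers were measured in 10 of 10, with 4709.3 to 6768.9 and 4753.2 to 6154.8. Fibroblast and adventitia markers had 33578.5 to 40179.5 and 34206.8 to 38373.7, and adipocyte markers 19215.9 to 26237.3 and 9336.7 to 25557.3. The share of each tissue in the samples was not tested. Wild-type mother 2 stood apart, with a Xist signal of 41.2, where the other 6 arrays had 5174.1 to 5930.9. The labels name no sex, and the fit held no term for it. That array also had a summed skeletal muscle signal of 2586, the highest of all arrays. On RNA quality, its 3' to 5' signal ratio of Gapdh was 7.80, where the others had 5.03 to 6.56, and it had the highest background (22.0) and the lowest percentage of probe sets above it (61.9%). Wild-type mother 1 had the highest summed signal of ganglion and glomus cell markers, 4684.4, and wild-type mother 3 the lowest summed adipocyte signal, 9336.7.

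The converting enzyme Ece1 had lower mean signals with an ApoE-null mother on all 3 of its probe sets, without overlap on the strongest. The strongest probe set (1455741_a_at) had signals of 737.3, 628.9, 648.1 and 745.3 with an ApoE-null mother, against 949.9, 1174.6 and 1076.3 with a wild-type mother. Each of the 4 values with an ApoE-null mother lay below each of the 3 with a wild-type mother, and the gap between the groups was wider than the range among the ApoE-null mother arrays, though not than that among the wild-type mother arrays. Means were 689.9 ± 60.0 (SD, n = 4) and 1067 ± 113 (SD, n = 3), a ratio of 0.648 on the log2(signal + 2) scale. The log2 fold change of -0.63 (standard error 0.14, 95% interval -0.93 to -0.32) did not pass the test over all probe sets (limma, unadjusted p = 0.00086, adjusted p = 0.415). The exact two-sided permutation test over the arrays gave p = 0.0286, the smallest that its 35 splits can give. The unadjusted limma p of this probe set ranked 56th smallest of the 27027 probe sets tested.

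The other 2 Ece1 probe sets were weaker and their groups overlapped. Probe set 1441423_at had signals of 35.2, 31.9, 57.1 and 66.6 with an ApoE-null mother, against 102.9, 52.8 and 62.0 with a wild-type mother, a log2 fold change of -0.59 with an interval of -1.30 to 0.12 (limma, adjusted p = 0.657). It was -0.79 to -0.32 with single arrays left out, the smallest change without wild-type mother 1. Probe set 1434177_at had 153.1, 63.5, 114.7 and 149.7 with an ApoE-null mother, against 152.7, 91.8 and 173.8 with a wild-type mother, a log2 fold change of -0.24 with an interval of -0.93 to 0.46 (limma, adjusted p = 0.860). Its sign rested on 1 array, as it was 0.035 without ApoE-null mother 2. Dropping wild-type mother 3 gave -0.06, and dropping wild-type mother 2 gave -0.51. Both intervals hold the value of the strongest probe set. The mean over the 3 probe sets gave a log2 fold change of -0.49 (limma, adjusted p = 0.601).

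Of the 18 probe sets, 13, of 7 genes, passed the filter on low signals, and 0 of them passed the test, where 0.0037% of all probe sets tested passed in either direction (limma, adjusted p under 0.05). At an unadjusted p under 0.05, 1 of the 13 was past the threshold, that of Ece1, against 8.25% of all probe sets. Groups did not overlap for 1 of the 13, Ece1 again, which was lower, while 4.01% of all probe sets were apart in that direction and 8.02% in either. Log2 fold changes were positive for 6 and negative for 7 of the 13, with a median of -0.21 against -0.0041 over all probe sets tested, and leaving out single arrays moved that median to between -0.15 and 0.0067, turning positive without ApoE-null mother 2. At 13 probe sets of 7 genes, these shares are near the background.

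**Figure D1:**
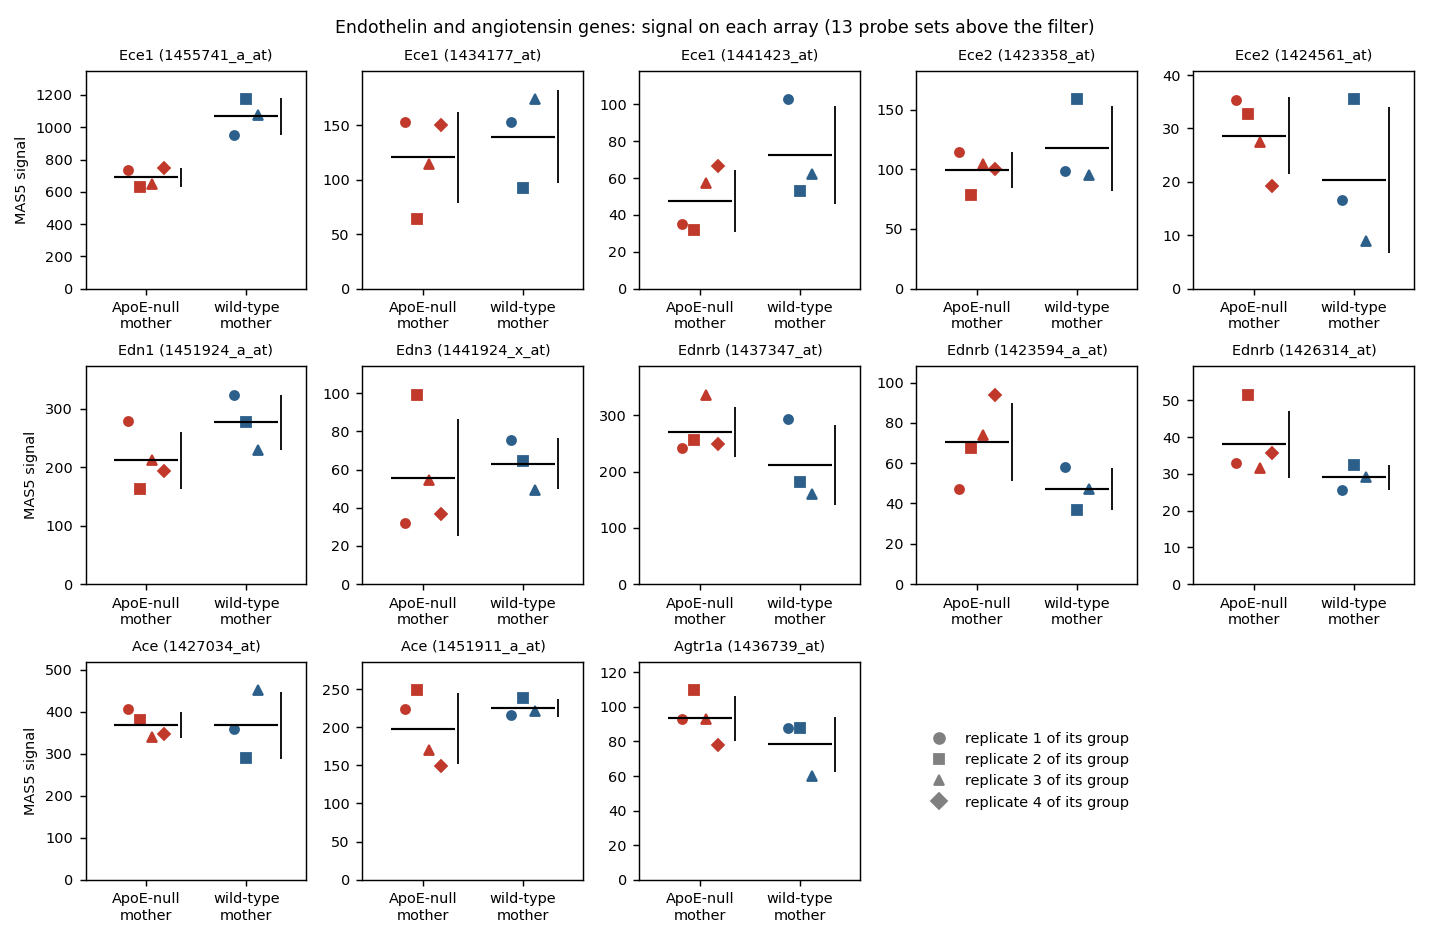
MAS5 signal (vertical axis, linear from 0) of the 13 probe sets above the filter on each array, with ApoE-null mother arrays in red on the left and wild-type mother arrays in blue on the right of each panel. Horizontal lines are group means, vertical bars are 1 SD on each side, and marker shapes are replicates within a group. The red and blue points of the strongest Ece1 probe set do not overlap, at 628.9 to 745.3 and 949.9 to 1174.6, while those of the other 12 probe sets do.

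Ece2, a converting enzyme related to Ece1 that works at acidic pH and is best known from neurons, had no shared direction over its probe sets. The stronger one (1423358_at) had signals of 114.5, 78.7, 104.8 and 100.1 with an ApoE-null mother, against 99.0, 158.9 and 95.2 with a wild-type mother. Only wild-type mother 2 was above the range of the ApoE-null mother group. On the log2 scale it differed by -0.21 with an interval of -0.71 to 0.29 (limma, adjusted p = 0.825), and 0.02 without wild-type mother 2. The weaker one (1424561_at) had 35.4, 32.7, 27.4 and 19.2 with an ApoE-null mother, against 16.6, 35.5 and 9.0 with a wild-type mother, at a log2 difference of 0.60 (standard error 0.45). It was at the level of background on wild-type mother 3. Its mean signal of 28.7 with an ApoE-null mother was above the filter of 23.6 and its mean of 20.4 with a wild-type mother below it, so it passed through the group in which it was higher, and its fold change is given as a description. Leaving out single arrays moved it to between 0.18 and 1.07, the lowest value being that without wild-type mother 3 and the highest that without array 2 of the same group.

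Edn1, which encodes endothelin-1, had signals of 278.4, 163.0, 213.1 and 193.8 with an ApoE-null mother, against 324.4, 277.1 and 230.3 with a wild-type mother. The array of ApoE-null mother 1 lay above those of wild-type mother 2 and wild-type mother 3, and the other 3 arrays of its group lay below all wild-type mother arrays. Means were 212 ± 48.8 (SD, n = 4) and 277 ± 47.1 (SD, n = 3). The log2 fold change of -0.40 had an interval of -0.85 to 0.05 (limma, unadjusted p = 0.0780, adjusted p = 0.642; exact permutation p = 0.143). It was -0.54 without ApoE-null mother 1 and -0.28 without ApoE-null mother 2 or wild-type mother 1. The 10 markers of endothelium, the main source of endothelin-1, had a median change of 0.06 on the log2 scale and a score that overlapped between groups, from -0.18 to 0.24 with an ApoE-null mother and from -0.25 to 0.13 with a wild-type mother. A score is the mean log2 deviation of the markers from their average over the arrays. In whole tissue, fewer cells of a type and less RNA per cell cannot be told apart.

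Edn3, which encodes endothelin-3, a ligand of the ETB receptor needed by neural crest cells, was weak. Of its 4 probe sets, 1 passed the filter (1441924_x_at, of a kind that Affymetrix marks as open to cross-hybridisation). It had signals of 32.1, 99.3, 54.4 and 37.0 with an ApoE-null mother, against 75.6, 64.4 and 49.2 with a wild-type mother. The array of ApoE-null mother 2 was the highest of all, and without it the log2 fold change was -0.60, against -0.29 with all arrays (interval -1.07 to 0.49; limma, adjusted p = 0.847). It was -0.08 without ApoE-null mother 1. The mean over the 4 probe sets, of which 3 were below the filter, gave -0.54 (limma, adjusted p = 0.800). The 3 other probe sets had signals of 0.7 to 30.8 with an ApoE-null mother and 1.4 to 60.6 with a wild-type mother, and each was highest, at 60.6, 37.0 and 19.6, in wild-type mother 1. That array also had the highest score of ganglion and glomus cell markers, 2.31, where the others had -1.47 to 0.72. The part of those cells in the Edn3 signal was not tested.

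Ednrb, the ETB receptor, had higher mean signals with an ApoE-null mother in all 3 of its probe sets, with overlap in each and no call. The strongest (1437347_at) had signals of 242.1, 255.9, 336.7 and 248.2 with an ApoE-null mother, against 293.3, 181.4 and 160.7 with a wild-type mother. All ApoE-null mother arrays were above wild-type mother 2 and wild-type mother 3, and 3 of the 4 were below wild-type mother 1. The log2 fold change was 0.39 with an interval of -0.10 to 0.87 (limma, unadjusted p = 0.106, adjusted p = 0.668). It was 0.65 without wild-type mother 1 (limma, unadjusted p = 0.00821, adjusted p = 0.418) and 0.22 without wild-type mother 3. Probe set 1423594_a_at had 47.0, 67.5, 74.1 and 94.0 with an ApoE-null mother, against 57.9, 36.8 and 47.0 with a wild-type mother, a log2 fold change of 0.54 with an interval of -0.05 to 1.14 (limma, adjusted p = 0.634). Probe set 1426314_at had 33.0, 51.6, 31.7 and 35.8 with an ApoE-null mother, against 25.5, 32.4 and 29.2 with a wild-type mother, a log2 fold change of 0.35 (limma, adjusted p = 0.765). The mean over the 3 probe sets gave 0.43.

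Ednrb is also expressed by glia and their precursors. Schwann cell and glial markers, measured in 6 of 9 genes and in none of these with a positive change, had scores of -1.37 to 0.37 with an ApoE-null mother and -0.24 to 1.28 with a wild-type mother, and summed signals of 4320.8 to 7145.3 and 5629.5 to 9906.7. The part of glia in the Ednrb signal was not tested.

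**Figure D2:**
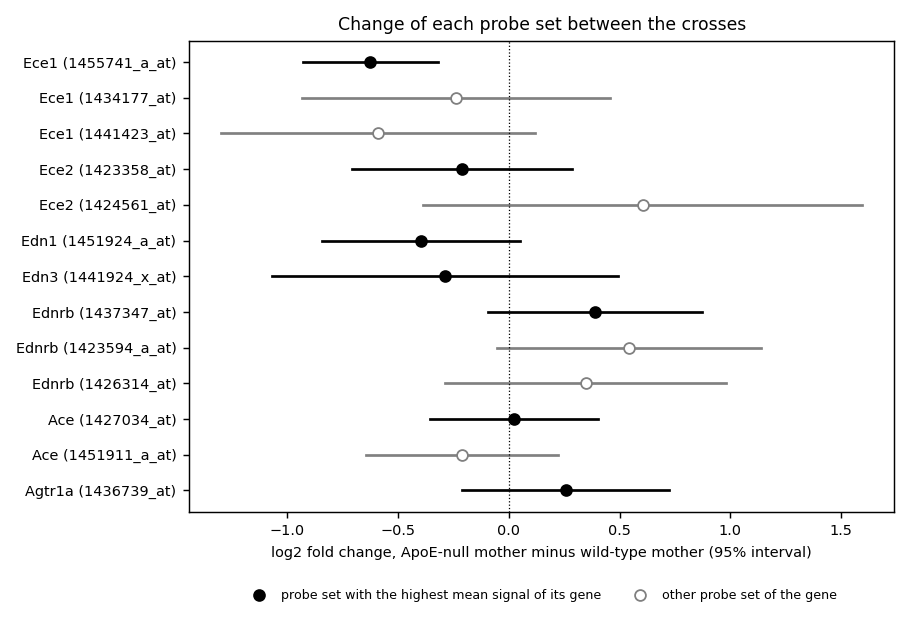
Log2 fold change (horizontal axis, ApoE-null mother minus wild-type mother) of each of the 13 probe sets, with its 95% interval from limma. Filled points are the strongest probe set of each gene and open points the others. The interval of the strongest Ece1 probe set, -0.93 to -0.32, is the one that leaves out 0.

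Among the angiotensin genes, Ace was measured on 2 probe sets, with overlap between the groups and no call on either. Ace is a peptidase of the endothelial surface that also degrades bradykinin. The stronger probe set (1427034_at) had signals of 405.9, 380.3, 339.6 and 348.1 with an ApoE-null mother, against 360.2, 290.7 and 451.8 with a wild-type mother. Wild-type mother 2 and wild-type mother 3 were the lowest and the highest of all arrays, so the spread within that group covered the whole other group. The log2 fold change was 0.02 with an interval of -0.36 to 0.40 (limma, adjusted p = 0.978), and its sign turned to -0.13 without wild-type mother 2. The other (1451911_a_at) had 224.4, 248.7, 169.5 and 149.4 with an ApoE-null mother, against 216.5, 237.9 and 221.2 with a wild-type mother, a log2 fold change of -0.21 with an interval of -0.64 to 0.22 (limma, adjusted p = 0.792).

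Agtr1a, the main AT1 receptor of mouse vessels, had signals of 92.8, 109.7, 93.1 and 77.8 with an ApoE-null mother, against 87.7, 87.5 and 60.1 with a wild-type mother. ApoE-null mother 4 lay below 2 of the wild-type mother arrays, and the other 3 lay above all of them. Means were 93.4 ± 13.0 (SD, n = 4) and 78.4 ± 15.9 (SD, n = 3), with a log2 fold change of 0.26 (interval -0.21 to 0.72; limma, adjusted p = 0.765). Without wild-type mother 3 it was 0.08.

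Agt and Agtr2 were at the level of background on 7 of 7 arrays. Agt had signals of 1.5 to 3.1 with an ApoE-null mother and 1.1 to 3.0 with a wild-type mother, and Agtr2 had 0.5 to 1.4 and 0.6 to 4.1. Both were below the filter and neither was tested, and each rests on 1 probe set. At the level of background a fold change cannot be read, so none is given for Agt or Agtr2. Adipocytes and the liver are known sources of angiotensinogen. Adipocyte markers were measured in 7 of 8 genes on these arrays, with summed signals of 19215.9 to 26237.3 with an ApoE-null mother and 9336.7 to 25557.3 with a wild-type mother.

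Leaving out single arrays moved the strongest probe sets of the genes by different amounts. The log2 fold change of the strongest Ece1 probe set stayed between -0.71 and -0.55 over the 7 fits, while those of Edn1 (-0.54 to -0.28), Edn3 (-0.60 to -0.08), Ednrb (0.22 to 0.65) and Agtr1a (0.08 to 0.34) kept their sign over a wider relative range. Ece2 (-0.34 to 0.02) and Ace (-0.13 to 0.18) changed sign. None of these probe sets was called in any of the fits (limma, smallest adjusted p = 0.264, for Ece1 without wild-type mother 1). At an unadjusted p under 0.05, 1 to 3 of the 13 probe sets were past the threshold, and the strongest Ece1 probe set was among them in each of the 7 fits.

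**Figure D3:**
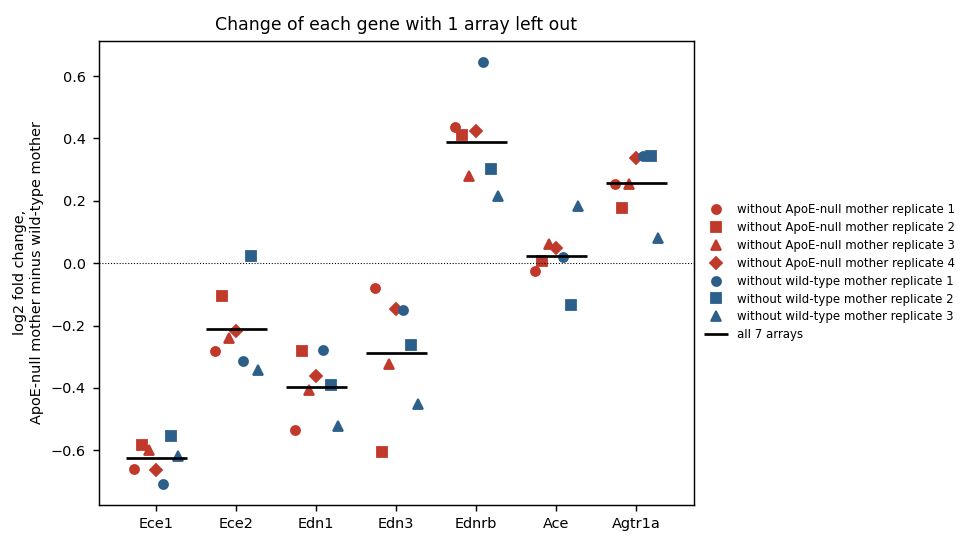
Log2 fold change (vertical axis, ApoE-null mother minus wild-type mother) of the strongest probe set of the 7 measured genes with 1 array left out, in red where an ApoE-null mother array and in blue where a wild-type mother array was left out, with marker shapes for its replicate number. Black lines are the values with all 7 arrays. The 7 values of that Ece1 probe set lie between -0.71 and -0.55, and those of Ece2 and Ace lie on both sides of 0.

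Of 11 cell type marker lists, that of T cells and thymocytes was apart between the groups as Ece1 was, in the opposite direction. It was measured in 6 of 9 genes, with scores of 0.56 to 1.17 with an ApoE-null mother and -1.65 to -0.64 with a wild-type mother, summed signals of 422.6 to 648.1 and 133.7 to 209, and Cd4 at the level of background on every array. Cd3d, Cd3g, Rag1 and Dntt had means of 9.7, 9.1, 19.8 and 16.8 with a wild-type mother, below the filter of 23.6. These genes passed through the group in which they were higher, so the score and the sum are given as a description. Cd8a had a log2 fold change of -0.15, with overlap between the groups. Skeletal muscle markers, measured in 9 of 10 genes, had summed signals of 144.7 to 244.3 with an ApoE-null mother and 183.1 to 2586 with a wild-type mother, the highest on wild-type mother 2, which also had the highest Gapdh 3' to 5' ratio and the highest Ece1 signal. Without that array the log2 fold change of Ece1 was -0.55 (limma, adjusted p = 0.350). Smooth muscle also expresses Ece1, and the score of its markers overlapped between groups, at -0.21 to 0.20 with an ApoE-null mother and -0.25 to 0.27 with a wild-type mother. The part of T cells in the Ece1 difference was not tested.

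Other genes of both pathways were read from 5 lists of 84 genes, of which 71 were named on the array and 61 lay above the filter. In the same fit 0 of the 61 passed the test (limma, smallest adjusted p = 0.459), with 2 higher and 6 lower at an unadjusted p under 0.05, where all probe sets had 4.3% higher and 3.96% lower. The 6 lower include Ecel1, which passed the filter through the group in which it was higher. Groups did not overlap for 2 of the 61 that were higher and 3 that were lower, where 4.01% of all probe sets were apart in each direction. The shares without overlap are near the background. The share of 6 lower of 61 at an unadjusted p under 0.05 is above the 3.96% of all probe sets, a difference that was not tested. Log2 fold changes were positive for 27 and negative for 34, with a median of -0.04. Genes are named by the smallest p in each list, with a few fixed in addition.

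Among 12 measured genes of angiotensin peptide processing, 4 were positive and 8 negative, with a median log2 fold change of -0.19. Prcp, a carboxypeptidase that turns angiotensin II into angiotensin-(1-7), had signals of 85.0, 86.2, 58.5 and 82.0 with an ApoE-null mother, against 103.2, 114.9 and 116.1 with a wild-type mother. The groups did not overlap on this probe set, and its log2 fold change of -0.52 did not pass (limma, unadjusted p = 0.0242, adjusted p = 0.562). The 2 weaker Prcp probe sets above the filter overlapped, at 0.01 and -0.12. Anpep, an aminopeptidase that trims angiotensin III, had a log2 fold change of -0.68 (limma, adjusted p = 0.641). Atp6ap2, the prorenin receptor and a partner of the proton pump, was among the stronger genes, with 5463 ± 272 (SD, n = 4) and 4833 ± 225 (SD, n = 3) and no overlap on its strongest probe set, at a log2 fold change of 0.18 (limma, adjusted p = 0.683). The groups overlapped on both other Atp6ap2 probe sets, with log2 fold changes of 0.19 and 0.11. Mme, or neprilysin, which degrades endothelins and angiotensins, had 324 ± 79.9 (SD, n = 4) and 279 ± 131 (SD, n = 3) on its stronger probe set. The log2 fold change of 0.32 there was -0.16 without wild-type mother 3. The weaker Mme probe set (1422975_at) was below the filter, near background and not tested. It went the other way without overlap, at 1.5 to 13.6 with an ApoE-null mother and 14.1 to 17.5 with a wild-type mother. Ren1 had no probe set with its symbol and was not analysed here.

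Among 7 measured genes of other receptors and partners, Kng1, which encodes the kininogen from which bradykinin is cut, had signals of 52.3, 118.2, 131.1 and 74.0 with an ApoE-null mother, against 34.3, 60.6 and 13.7 with a wild-type mother. Wild-type mother 2 lay above ApoE-null mother 1, and the log2 fold change of 1.45 did not pass (limma, unadjusted p = 0.00758, adjusted p = 0.508). It was 0.92 without wild-type mother 3. The other Kng1 probe set (1426045_at) was below the filter. Its means were 21.8 with an ApoE-null mother and 19.5 with a wild-type mother, a log2 difference of 0.11. Ecel1, a membrane protease related to Ece1 by sequence, had 20.2, 13.6, 27.2 and 13.6 with an ApoE-null mother, against 53.6, 37.5 and 27.2 with a wild-type mother. The log2 fold change was -1.01 (limma, adjusted p = 0.555). The Ecel1 mean of 18.65 with an ApoE-null mother was below the filter of 23.6, and that of 39.4 with a wild-type mother above it. Ecel1 thus passed through the group in which it was higher, and its fold change is given as a description. On ApoE-null mother 2 it was at the level of background. Agtrap, which binds the AT1 receptor and promotes its uptake into the cell, had a log2 fold change of -0.24 on its stronger probe set (limma, adjusted p = 0.741), which was -0.14 without ApoE-null mother 2, and of -0.65 on the weaker (limma, adjusted p = 0.663). Agtr1b, a second AT1 receptor of rodents, had one of 0.30 (limma, adjusted p = 0.865), which was 0.04 without ApoE-null mother 1 and 0.60 without ApoE-null mother 4. Mas1, the receptor of angiotensin-(1-7), was at the level of background on every array.

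Downstream of the receptors, 20 Gq and G12 signalling genes had a median log2 fold change of -0.02. Prkca, a protein kinase C activated by diacylglycerol and calcium, had signals of 534.6, 599.1, 612.2 and 524.6 with an ApoE-null mother, against 928.9, 709.7 and 919.7 with a wild-type mother. The groups did not overlap, at a log2 fold change of -0.58 (limma, unadjusted p = 0.00246, adjusted p = 0.459), while they overlapped on the weaker probe set above the filter, at -0.55. Plcb3, a phospholipase C that Gq activates, had a log2 fold change of -0.45 (limma, adjusted p = 0.604). Of 9 genes of receptor desensitisation, Rgs4, which shortens Gq signals, had 1345 ± 128 (SD, n = 4) and 1046 ± 145 (SD, n = 3), a log2 fold change of 0.37 (limma, adjusted p = 0.573) on its strongest probe set and of 0.01 on the next. The receptor kinase gene Grk3 had one of 0.44 (limma, adjusted p = 0.739), which was 0.02 without wild-type mother 3, and of 0.13 and -0.10 on its weaker probe sets.

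Of 13 measured targets and NADPH oxidase genes, 4 were positive and 9 negative, with a median of -0.12. Nfatc1, a transcription factor that calcium activates through calcineurin, had signals of 258.9, 279.3, 246.9 and 295.6 with an ApoE-null mother, against 340.1, 367.0 and 402.9 with a wild-type mother, without overlap. Its log2 fold change of -0.45 did not pass (limma, unadjusted p = 0.0109, adjusted p = 0.523). Of its 4 weaker probe sets, 1 was also lower without overlap, at -0.25, and the Nfatc1 groups overlapped on the other 3, at -0.13 to 0.13. Ccn1, a matricellular protein induced by angiotensin II in smooth muscle, had 1988.7, 824.7, 754.4 and 1061.1 with an ApoE-null mother, against 1429.1, 1697.6 and 1854.6 with a wild-type mother. On this probe set ApoE-null mother 1 was the highest of all arrays and the other 3 were the lowest, with a log2 fold change of -0.62 (limma, adjusted p = 0.604). The weaker Ccn1 probe sets had log2 fold changes of -0.65, -0.31 and -0.37, with overlap in each. On 1416039_x_at and 1438133_a_at the order differed, as wild-type mother 1 was the highest of all arrays, at 1756.5 and 1205.6.

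**Figure D4:**
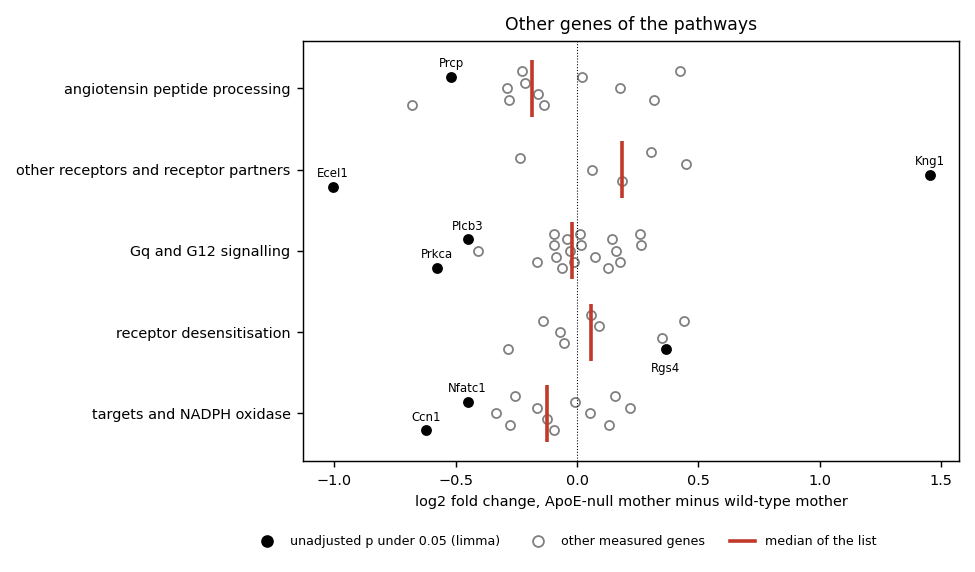
Log2 fold change (horizontal axis, ApoE-null mother minus wild-type mother) of 61 other genes of the endothelin and angiotensin pathways in 5 lists (vertical axis). Filled points have an unadjusted p under 0.05 in limma, open points do not, and red lines are list medians. The 8 filled points are on both sides of 0, with medians between -0.19 and 0.19.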

How the data were processed

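The authors deposited 1 linear intensity per probe set and array, computed by the MAS5 algorithm in GCOS according to the submitters' processing notes, with no version stated. The 2% trimmed mean was 200.0 on each of the 7 arrays, so the authors' scaling was kept. Of 45101 probe sets, 34958 had 1 symbol in the platform annotation, 932 several and 9211 none. For 34754 of those with 1 symbol a gene ID matched a GRCm38.p6 table, and 0 symbols changed. Signals were transformed to log2(signal + 2), which understates changes of weak genes. The 64 control probe sets and those with a mean signal at or below the 40th percentile (23.6) were left out, which left 27027. The linear model of limma (lmFit, then eBayes with its trend option; version 3.58.1, R version 4.3.3) took the difference between ApoE-null and wild-type mothers, without covariates, and p-values were adjusted by Benjamini-Hochberg with a threshold of 0.05. Intervals are at the 95% level. Permutation tests were exact and two-sided, on differences of group means, and are not adjusted.

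The genes and all lists were chosen with earlier results of these data known. All probe sets of the 10 genes are given, and the one with the highest mean signal above the filter stands for a gene. Of the other pathway genes, the 2 with the smallest p in each list and any past the threshold are named, with Mme, Ren1, Atp6ap2, Agtrap, Mas1 and Agtr1b. Alternatives were a pseudocount of 16, no filter, no intensity trend, quantile normalization, array quality weights, the mean over a gene's probe sets and leaving out each array. Promoter windows are from RefSeq (GRCm38.p6). The number of arrays limits the precision, and arrays of the groups were numbered in separate blocks in the labels, so that a batch following this order and the cross cannot be told apart.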

Additional observations from a re-analysis of the deposited data

Results flagged for a closer look

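Of 38 probe sets of the named genes checked for a lone array within the ApoE-null mother group, 2 had one, where chance gives about 1 in 20. Both lone arrays were that of ApoE-null mother 3. For the strongest Ednrb probe set its signal of 336.7 stood above the 242.1 to 255.9 of the other 3 arrays, with a gap of 0.832 of the range on the log2 scale, and without it the log2 fold change was 0.28. For Prcp its signal of 58.5 stood below the 82.0 to 86.2 of the others, with a gap of 0.871 of the range, and without it the log2 fold change was -0.39.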

How the results depend on the processing

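In limma, 0 of the 13 probe sets of endothelin and angiotensin genes and 0 of the 61 other pathway genes were called under each of the 12 alternatives run on them. For the strongest probe sets of the 21 genes named with a fit, 250 of 257 values under an alternative kept their direction and their side of the threshold. The other 7 changed sign, all without passing. The log2 change of Ace was -0.067 with array quality weights, -0.095 as the mean of its probe sets and -0.13 to 0.18 with single arrays left out, being negative when the left-out array was wild-type mother 2 (-0.13) and when it was ApoE-null mother 1 (-0.024). That of Ece2 was 0.20 as the mean of its probe sets and -0.34 to 0.022 with single arrays left out, the positive value without wild-type mother 2. That of Mme was -0.16 to 0.60 with single arrays left out, the negative value without wild-type mother 3. Over the whole table, 1 probe set was called higher and 0 lower. With no intensity trend 0 were called higher, and with quantile normalization or array quality weights 2. With single arrays left out, 0 to 16 were called higher and 0 to 2 lower, the most in each direction without wild-type mother 1, and the median log2 fold change of the 13 probe sets was -0.15 to 0.0067. The cause was not tested. The planned ratio of Ednra to Ednrb was not run, because no probe set carried the symbol Ednra. No paired analysis was possible because the labels give no replicate numbers shared by the groups. Signals near background limit Agt, Agtr2, Mas1, Ecel1, the weaker Ece2 probe set, the weaker Mme probe set and 3 of the 4 Edn3 probe sets.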
